A study of Mus musculus with 12 samples.

Results

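The 7 sarcomeric myosin heavy chain genes described here are Myh7, Myh7b, Myh2, Myh1, Myh4, Myh8 and Myh3, chosen by name, and all 7 were found among the 30323 genes of the expression table. Levels are in TPM, a unit summing to a fixed total per library, which divides reads by transcript length so that genes of a library can be compared with each other. RNA came from the soleus, a slow postural muscle of the calf, of male C57BL/6N mice aged 24 months, and every mouse in all 4 groups had run voluntarily on a wheel in its home cage for 8 weeks. Mice were called low functioning (LF) or high functioning (HF) from their performance on an accelerating rotarod, a turning rod on which mice must keep their footing. Within each class 3 libraries came from mice 5 days after laparotomy (abdominal surgery) and 3 from age matched mice without surgery, here called control. Replicate numbers only name the libraries. Whether every library came from its own mouse is not in the labels, so the p-values measure the spread between these libraries. All 7 genes had a mean of at least 1 TPM, the level required for testing, and 10757 genes were tested in all.

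A myosin heavy chain is the motor of the thick filament, and the isoform a fibre uses sets how fast it shortens. Adult mouse limb muscle uses Myh7 in slow type 1 fibres, Myh2 in type 2A, Myh1 in type 2X and Myh4 in type 2B fibres, from slow to fast, and the mouse soleus is known for a mix of type 1 and type 2A fibres. Myh3 and Myh8 encode the embryonic and neonatal chains of developing and regenerating muscle, and Myh7b encodes a slow-type chain best known as the host of a microRNA.

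Of the members, 5 lie in a row on the + strand of chromosome 11 of GRCm38. Myh3 spans chr11:67078300-67102291, Myh2 chr11:67171027-67197517, Myh1 chr11:67200052-67224575, Myh4 chr11:67238029-67260446 and Myh8 chr11:67277124-67308634. Myh7 lies apart on the - strand at chr14:54970684-54994626 and Myh7b on the + strand at chr2:155611212-155634307. The sequences just upstream of 4 neighbours are shown because these genes share promoter letters while their RNA levels lie far apart (Myh2 had a median of 1219 times the TPM of Myh8). Each line is 100 bases of the coding strand, 5′ to 3′, from the RefSeq promoter table (GRCm38.p6), with positions counted back from the RefSeq start. The first run of capitals is the match to the MEF2 motif, or in Myh2 the stretch closest to the match in Myh1, searched only upstream of the shared stretch. The second run is the stretch shared between genes.
Myh2, chr11:67170837-67170936, bases -190 to -91: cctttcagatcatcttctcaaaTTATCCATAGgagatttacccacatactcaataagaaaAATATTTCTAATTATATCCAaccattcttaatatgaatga
Myh1, chr11:67199877-67199976, bases -225 to -126: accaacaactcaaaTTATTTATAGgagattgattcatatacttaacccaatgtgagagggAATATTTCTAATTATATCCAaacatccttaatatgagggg
Myh4, chr11:67237589-67237688, bases -223 to -124: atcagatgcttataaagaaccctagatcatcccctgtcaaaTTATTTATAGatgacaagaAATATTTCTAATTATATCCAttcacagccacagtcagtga
Myh8, chr11:67277005-67277104, bases -119 to -20: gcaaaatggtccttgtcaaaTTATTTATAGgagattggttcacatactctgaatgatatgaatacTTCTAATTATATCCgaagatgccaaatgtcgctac

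The 250 bases upstream of Myh2, Myh1 and Myh4 share the 20-base stretch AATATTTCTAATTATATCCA, which was found in no promoter other than these 3 among 27025 (0.0111%, either strand). Its inner 14 bases, TTCTAATTATATCC, were found in these and in Myh8 (4 of 27025 promoters, 0.0148%). A match to the MEF2 motif, the site of a family of muscle transcription factors, stands upstream of that stretch in Myh1, Myh4 and Myh8, and such a match was found in 3.01% of all promoter windows of 250 bases. The Myh2 window held no MEF2 match. The first stretch marked in Myh2 differs from the Myh1 match, counted from 1 at its 5′ end, by T5C and T6C. The TATA box letters TATAAA, searched on both strands and present in 13% of windows, were found in Myh1, Myh4, Myh8 and Myh3 but not in Myh2. On the opposite strand, 1 of these matches in Myh1, 1 in Myh4 and the match in Myh8 lie inside the MEF2 match. The E-box CANNTG (66% of windows) was found upstream of Myh7, Myh7b, Myh4, Myh8 and Myh3, and CATTCC (12.6% of windows, either strand), the letters bound by TEAD factors, upstream of Myh7, Myh1 and Myh4. Myh7 has 2 listed starts and was counted if either window held the letters. These matches describe the letters and are not tested sites.

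Introns of Myh7b and Myh7 carry related microRNA genes, whose mature forms are shown because both hosts are described below. Their seeds (bases 2 to 8) are in capitals, from the RefSeq microRNA table.
mmu-miR-499-5p, in Myh7b, chr2:155622893-155622913: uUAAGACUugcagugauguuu
mmu-miR-208b-3p, in Myh7, chr14:54975710-54975731: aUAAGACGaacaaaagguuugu
Both have UAAGAC at bases 2 to 7 and differ at the last base of the seed. These libraries measured the host mRNAs and not the mature microRNAs.

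Myh7, Myh2 and Myh1 made up nearly all of the myosin heavy chain RNA in every library. Over the 12 libraries Myh7 had 2834 ± 425 TPM (mean ± SD, n = 12), Myh2 2184 ± 791 TPM and Myh1 739 ± 250 TPM. Myh7 exceeded Myh1 in 12 of 12 libraries and so did Myh2, while Myh7 exceeded Myh2 in 10 of 12. The exceptions were LF laparotomy 1 and LF laparotomy 3, with Myh2 at 1.24 and 1.06 times the Myh7 level. The remaining members were far lower, with 22.9 ± 6.77 TPM for Myh7b, 17.3 ± 3.49 TPM for Myh3 and 1.64 ± 0.523 TPM for Myh8. Myh4 had a median of 5.43 TPM but ranged from 3.05 to 90.8 TPM. Of the low members Myh7b exceeded Myh3 in 8 of 12 libraries, so the order of these neighbours was not fixed, and Myh8 was the lowest member in 12 of 12.

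**Figure D1:**
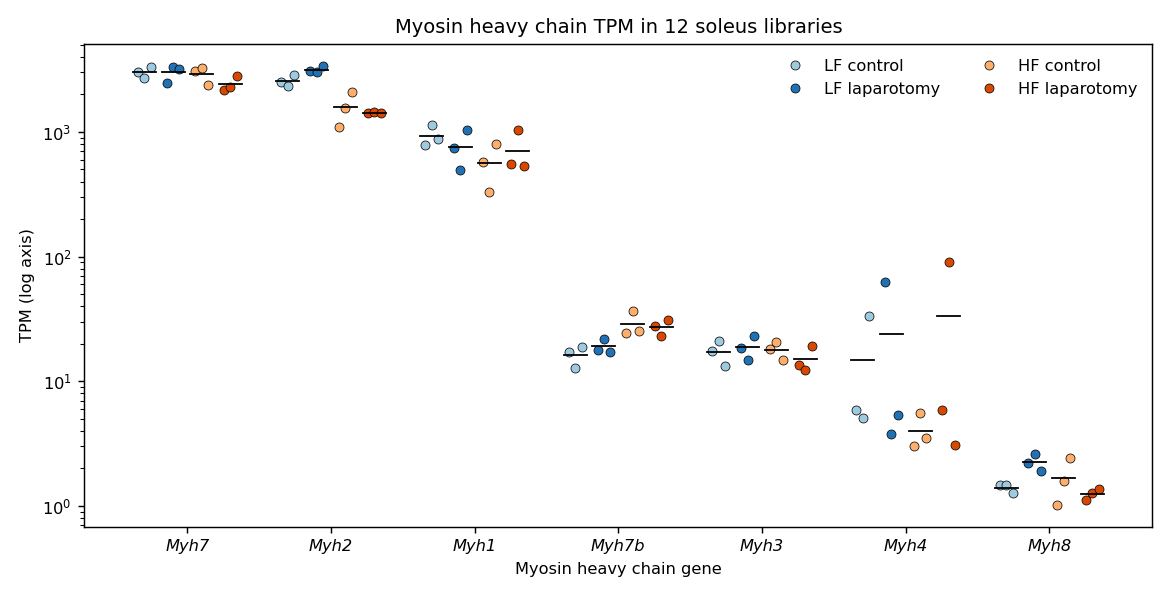
TPM (log axis) of the 7 myosin heavy chain genes in each of 12 soleus libraries, as 1 point per library coloured by group, with a bar at the mean of each group of 3. Myh2 in the HF groups lies below every LF library, Myh7b in the HF groups lies above every LF library, and 3 libraries carry Myh4 above 30 TPM.

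The first comparison, HF against LF, asks how the muscle of mice that differed in motor performance differed in myosin RNA. Myh2, the type 2A chain, fell in HF and Myh7b rose, and no other member passed the test when the contrasts with and without surgery were averaged. In that averaged contrast 2 of 7 members were called at an adjusted p under 0.05, against 41.3% of all genes tested, so the members were called no more often than genes in general. By direction 6.03% of all genes were called higher and 35.3% lower in HF. With median-of-ratios size factors these shares were 19.9% and 20.6%, so the split of the background, unlike the calls of Myh2 and Myh7b, depended on the scaling. Log2 differences below are on log2(TPM + 1) and are centred on the median over all tested genes, which was -0.15 for HF minus LF. The adjusted p is that of limma with Benjamini-Hochberg adjustment over all 10757 genes, for the value before this centring.

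Myh2 was at 2519, 2345 and 2870 TPM in the 3 LF control libraries and at 3063, 3037 and 3381 TPM after laparotomy in LF. In HF it was at 1098, 1550 and 2082 TPM in controls and at 1416, 1439 and 1411 TPM after laparotomy. All 6 HF libraries were below all 6 LF libraries, and the HF controls were spread widely while the 3 HF laparotomy libraries were nearly equal. Groups that do not overlap in this way were found for 11.1% of all genes tested. Myh2 fell in HF by 0.80 ± 0.12 (SE) on the log2 scale averaged over surgery (limma's adjusted p = 0.000374). Relative to the median over all tested genes this was 0.573 times the LF level. Before centring the log2 difference was -0.95. The call held under 24 of 24 alternative settings (adjusted p from 3.27e-06 to 0.00384).

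Myh7b was at 17.2, 12.8 and 18.8 TPM in LF controls and at 17.9, 21.8 and 17.3 TPM in LF after laparotomy. In HF the levels were 24.5, 36.9 and 25.2 TPM in controls and 27.7, 23.2 and 31.1 TPM after laparotomy. All 6 HF libraries were above all 6 LF libraries, and HF control 2 was the highest. Myh7b rose by 0.79 ± 0.13 (SE) on the log2 scale (limma's adjusted p = 0.0021). Relative to the median over all tested genes this was 1.73 times the LF level. Before centring the log2 difference was 0.64. The call held under 24 of 24 alternatives (limma's adjusted p from 0.000458 to 0.0115). In bulk tissue more cells of a type and more RNA per cell cannot be told apart, here or in the results that follow.

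Myh7, the slow chain and the highest isoform in 10 of 12 libraries, did not pass. It was at 3037, 2701 and 3339 TPM in LF controls and 2473, 3328 and 3183 TPM in LF after laparotomy, against 3054, 3249 and 2369 TPM in HF controls and 2179, 2280 and 2818 TPM in HF after laparotomy. The HF and LF libraries overlapped, with a difference of -0.04 ± 0.11 (SE) on the log2 scale and limma's adjusted p = 0.178. Array weights, which give less weight to libraries that vary more, called Myh7 lower (-0.12, limma's adjusted p = 0.00566). Under them limma called 5369 of all 10757 genes lower in this contrast.

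Myh1, the type 2X chain, was variable in every group. Its levels were 784, 1139 and 874 TPM in LF controls, 744, 493 and 1031 TPM in LF after laparotomy, 569, 329 and 804 TPM in HF controls and 549, 1027 and 530 TPM in HF after laparotomy. The classes overlapped, and HF control 2, the library highest in Myh7b, was the lowest in Myh1. The averaged difference was -0.30 ± 0.24 (SE), with limma's adjusted p = 0.145.

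Myh4, the type 2B chain, was set by single libraries. LF control 3 had 33.5 TPM, LF laparotomy 1 62.4 TPM and HF laparotomy 2 90.8 TPM, and the other 9 libraries lay between 3.05 and 5.93 TPM. The 3 high libraries fall in 3 different groups, and the averaged difference of HF from LF had an error larger than itself (-0.38 ± 0.79, limma's adjusted p = 0.615). Other fast fibre genes were high in some of these libraries. Mybpc2, the fast myosin binding protein C, had 31.2, 13.4 and 57.4 TPM in them and 0.265 to 20 TPM in the others. Pvalb, the calcium buffer parvalbumin of fast fibres, had 180, 130 and 306 TPM in them and 14.3 to 203 TPM in the others. For both Mybpc2 and Pvalb the ranges thus overlapped. The part of fast fibres from outside the soleus in these values was not tested. Without these 3 libraries Myh2 and Myh7b were still called in the averaged contrast (-0.75, adjusted p = 0.00325, and 0.90, adjusted p = 0.00547, both by limma).

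The developmental chains were low and not called in the averaged contrast. Myh3 ranged from 13.3 to 23.2 TPM in LF and from 12.3 to 20.7 TPM in HF (0.02 ± 0.14, limma's adjusted p = 0.494). Myh8 ranged from 1.27 to 2.62 TPM in LF and from 1.02 to 2.41 TPM in HF (-0.05 ± 0.11, limma's adjusted p = 0.173). At these levels the pseudocount of 1 TPM shrinks any difference of Myh8. The HF and LF libraries overlapped for both. Without HF control 3, which had the highest Myh8 among the HF libraries, Myh8 passed as lower in HF (-0.17, limma's adjusted p = 0.0307).

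**Figure D2:**
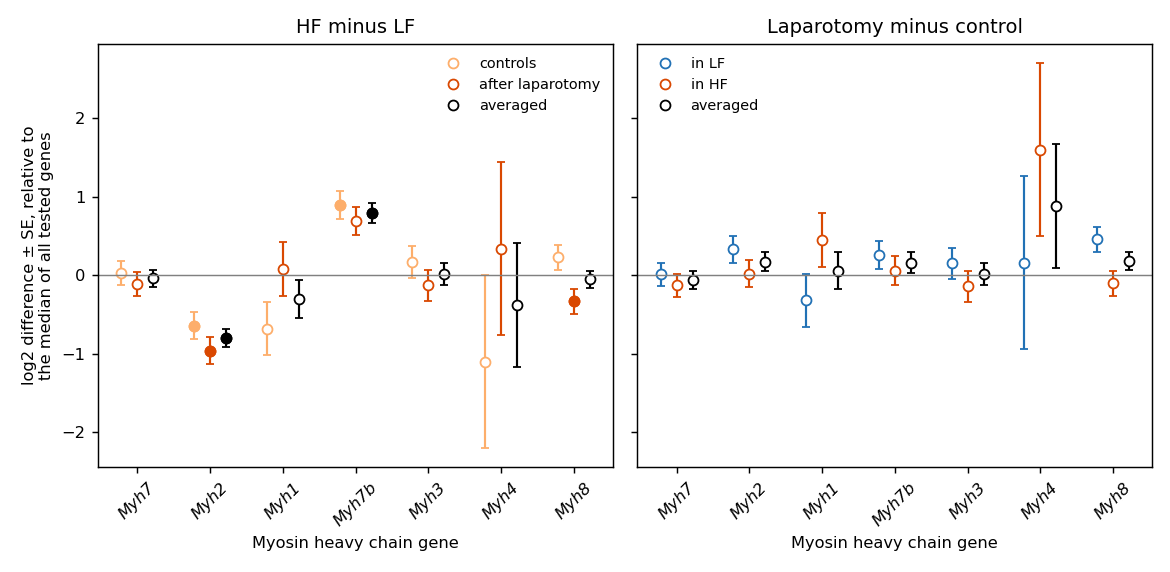
Log2 difference ± SE on log2(TPM + 1), centred on the median over all tested genes, for the 7 members, with HF minus LF on the left and laparotomy minus control on the right. Filled points passed at an adjusted p under 0.05 (limma). Myh2 is filled and below 0 in all 3 HF minus LF contrasts, and no point is filled on the right.

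The difference between HF and LF was then taken separately with and without surgery. These contrasts use different libraries. In controls 2 of 7 members were called, against 10.5% of all genes, and these were Myh2 (-0.64 ± 0.17, limma's adjusted p = 0.0245) and Myh7b (0.89 ± 0.18, limma's adjusted p = 0.0235). After laparotomy 2 of 7 were called, against 26% of all genes, and these were Myh2 (-0.96 ± 0.17, limma's adjusted p = 0.00302) and Myh8 (-0.33 ± 0.16, limma's adjusted p = 0.0321). Myh7b missed the threshold after laparotomy (0.69 ± 0.18, limma's adjusted p = 0.0541) but passed under 9 of 25 alternatives, among them quantile normalization (adjusted p = 0.012), size factors (0.0132), rescaled TPM (0.0265) and a removed trend on length and GC content (0.0375). The libraries of the HF and LF controls did not overlap for 2 members, Myh2 and Myh7b, against 40.4% of all genes. After laparotomy they did not overlap for 3 members, Myh2, Myh7b and Myh8, against 40.5% of all genes. Groups of 3 that do not overlap were thus common over all genes.

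The call of Myh2 after laparotomy held under 25 of 25 alternatives, with limma's highest adjusted p at 0.0222. In controls Myh2 was no longer called without LF control 2 (-0.69, adjusted p = 0.0777), LF control 3 (-0.57, 0.091) or HF control 1 (-0.41, 0.0734), each by limma. Myh7b was no longer called there without LF control 2 (0.76, adjusted p = 0.106), LF control 3 (0.996, 0.0599), HF control 1 (0.997, 0.0594) or HF control 3 (0.94, 0.0673), against a difference of 0.89 with all libraries. Without these libraries the calls over all genes in that contrast fell too, from 1127 to 2, 48, 47 and 66 in that order. After laparotomy the call of Myh8 was lost under 10 of 24 alternatives, among them size factors (adjusted p = 0.147), quantile normalization (0.105) and leaving out LF laparotomy 2 (0.116) or 3 (0.0532), or HF laparotomy 1 (0.0995) or 2 (0.0832). The Myh8 levels behind it were 2.2, 2.62 and 1.9 TPM in LF and 1.11, 1.26 and 1.37 TPM in HF.

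Laparotomy against control asks where the same RNAs stood 5 days after surgery. None of the 7 members was called in any of the 4 contrasts of surgery, averaged, in LF, in HF, or in the difference between HF and LF, and neither was any other gene, so the background is 0% in each. At an unadjusted threshold of 0.05 limma, fitted across all genes, gave 6.94% of all genes averaged, 2.71% in LF, 6.18% in HF and 3.08% for the difference. Of the members it gave Myh8 in LF and in the difference (limma's unadjusted p = 0.0201 and 0.0138, adjusted p = 1 for both). Myh2 lay above every control after laparotomy in LF (0.33 ± 0.17 on the log2 scale, limma's adjusted p = 1) but not in HF (0.02 ± 0.17, limma's adjusted p = 0.8), and the test of the difference between the classes gave -0.31 ± 0.25 (limma's adjusted p = 1). Myh8 also lay above every control in LF, from 1.27 to 1.48 TPM in controls and from 1.9 to 2.62 TPM after laparotomy. Thus 2 of 7 members did not overlap between surgery and control in LF, against 6.46% of all genes, and 0 of 7 in HF, against 17.2%. Myh7 differed by 0.01 ± 0.15 in LF and -0.13 ± 0.15 in HF, Myh1 by -0.32 ± 0.34 and 0.45 ± 0.34, and neither passed. Array weights, under which limma called 734 of all genes in LF, were the exception among the alternatives for the members, calling Myh7b, Myh1 and Myh8 in LF.

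The share of each adult isoform in the sum of Myh7, Myh2, Myh1 and Myh4 does not depend on how libraries are scaled against each other. Myh7 made up 47.9%, 43.6% and 46.9% in LF controls, 39%, 48.5% and 41.9% in LF after laparotomy, 64.6%, 63.3% and 45% in HF controls and 52.5%, 47.1% and 59.2% in HF after laparotomy. HF control 3 and HF laparotomy 2 lay within the LF range and the other 4 HF libraries above it. Myh2 made up 39.7%, 37.9% and 40.3% in LF controls and 48.3%, 44.3% and 44.5% in LF after laparotomy. In HF its share was 23.2%, 30.2% and 39.6% in controls and 34.1%, 29.8% and 29.6% after laparotomy. For Myh2 too HF control 3 lay within the LF range, and the other 5 HF libraries lay below it.

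Shares were compared by an exact two-sided permutation test that keeps the surgery groups apart (400 relabellings, smallest possible p = 0.005), with Benjamini-Hochberg adjustment over 10 tests, 5 measures in 2 comparisons. The Myh2 share was 31.1% ± 5.44 in HF and 42.5% ± 3.86 in LF (SD, n = 6), 11.4 percentage points lower in HF (exact permutation p = 0.01, adjusted 0.1). The Myh7 share was 55.3% ± 8.31 in HF and 44.6% ± 3.77 in LF, 10.7 points higher (exact permutation p = 0.03, adjusted 0.1). The log2 of Myh2 over Myh7 was -0.836 ± 0.444 in HF and -0.0715 ± 0.225 in LF (exact permutation p = 0.02, adjusted 0.1). None of these passed after adjustment. The Myh7 share also missed an unadjusted 0.05 if the library dropped was LF control 2, number 1 or 3 of LF laparotomy, or number 1 or 3 of HF laparotomy (9.11 to 10.8 points, exact permutation p from 0.055 to 0.065).

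The Myh1 and Myh4 shares differed less between HF and LF. Myh1 made up 13.2% ± 4.91 in HF and 12.6% ± 3.6 in LF (SD, n = 6, exact permutation p = 0.795), and Myh4 0.387% ± 0.73 and 0.293% ± 0.374 (exact permutation p = 0.805). After surgery Myh2 was 6.38 points higher in LF and 0.154 points higher in HF, and Myh7 differed by -3.02 and -4.72 points. Averaged over the classes neither passed (Myh2 exact permutation p = 0.25, Myh7 p = 0.315), although without HF control 3 the Myh2 share was 5.41 points higher after surgery (exact permutation p = 0.02). The summed adult myosin was 6743 ± 550 TPM in LF and 4811 ± 388 TPM in HF (SD, n = 6), from 6190 to 7600 TPM and from 4151 to 5258 TPM. Within these sums Myh2 was at 2869 ± 381 TPM in LF and 1499 ± 323 TPM in HF, and Myh7 at 3010 ± 353 and 2658 ± 444 TPM.

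**Figure D3:**
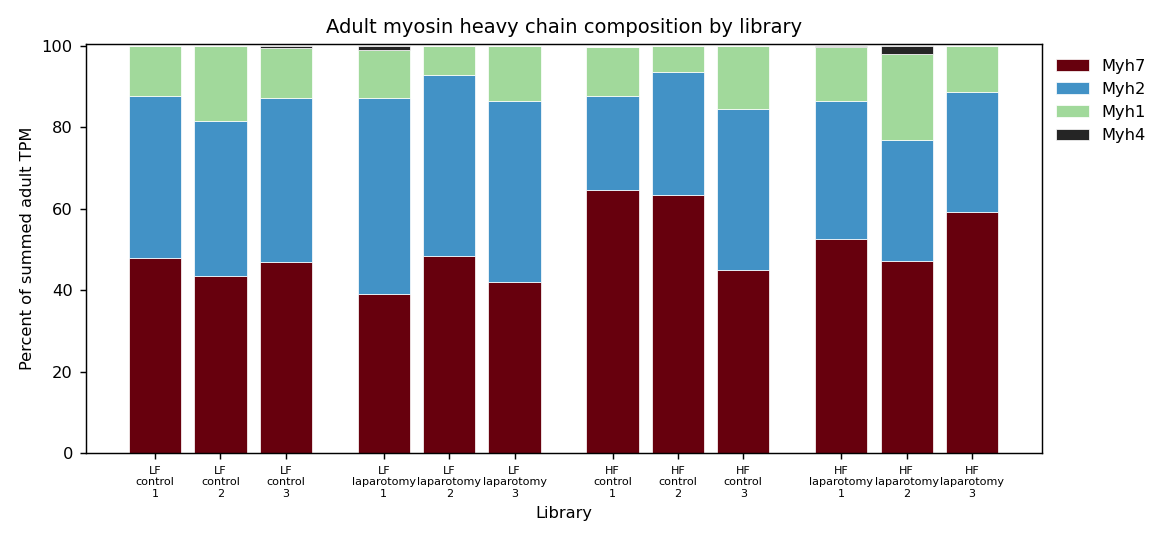
Share of Myh7, Myh2, Myh1 and Myh4 in their summed TPM (percent, stacked to 100) for each of the 12 libraries, in their 4 groups. Myh2 takes 23.2% to 39.6% in the HF libraries and 37.9% to 48.3% in the LF libraries, and Myh4 is a visible band only in LF control 3, LF laparotomy 1 and HF laparotomy 2.

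Transcript length moved with the difference between HF and LF over the whole table. The median difference of HF from LF on log2(TPM + 1), before centring, was 0.01 for the genes of the shortest quartile of length and -0.26 for those of the longest. The 7 members have transcripts of 6016 to 6230 bases, and the 835 genes of 5501 to 6799 bases had a median of -0.26. Myh2 before centring was at -0.95 and Myh7b at 0.64, while Myh7 (-0.19), Myh8 (-0.20) and Myh3 (-0.13) lay nearer to the value of genes of their length. Myh1 (-0.45 ± 0.24, SE) and Myh4 (-0.53 ± 0.79, SE) lay below that value, with wide errors. With the trend on length and GC content removed, Myh2 was at -0.72 (limma's adjusted p = 0.000591) and Myh7b at 0.80 (limma's adjusted p = 0.00217).

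The members resemble each other in sequence, which bears on how well their reads can be separated. Of the 31-base words in the coding transcripts of Myh2, 28.1% also occur in Myh1 and 38.5% in any of 8 other sarcomeric chains. The share with any of them was 37.8% for Myh1, 30.4% for Myh4, 25.4% for Myh8 and 10.6% for Myh3. For Myh7 it was 30.6%, nearly all with the cardiac chain Myh6, and for Myh7b 0.179%. Values of all members except Myh7b are therefore uncertain where reads could be assigned to a neighbour, which matters most for the low Myh4 and Myh8 beside the abundant Myh2 and Myh1. Exons of Myh7, Myh7b, Myh2 and Myh1 also overlap genes of the opposite strand, Mhrt and 2 further antisense genes, Trpc4ap, 9430073C21Rik and Myhas. The library kit keeps strand, but no source used here says whether the quantification used strand.

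Along the cluster of chromosome 11 the highest member, Myh2, and the next, Myh1, are neighbours, and the levels of the genes on either side were lower by an order of magnitude or more. The other genes of the cluster overlapped between the HF and LF libraries. Myh13, a chain of eye and laryngeal muscle at the end of the cluster, had 2.43 to 5.46 TPM in LF and 3.88 to 6.73 TPM in HF and was called higher (0.65 ± 0.16, limma's adjusted p = 0.0252), opposite to Myh2. That call was lost under 6 of 23 alternatives, with no filter on low values (0.51, adjusted p = 0.0909) and without LF control 2 (0.0636), LF laparotomy 1 (0.0544) or 2 (0.0508), or HF laparotomy 2 (0.0608) or 3 (0.0506).

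**Figure D4:**
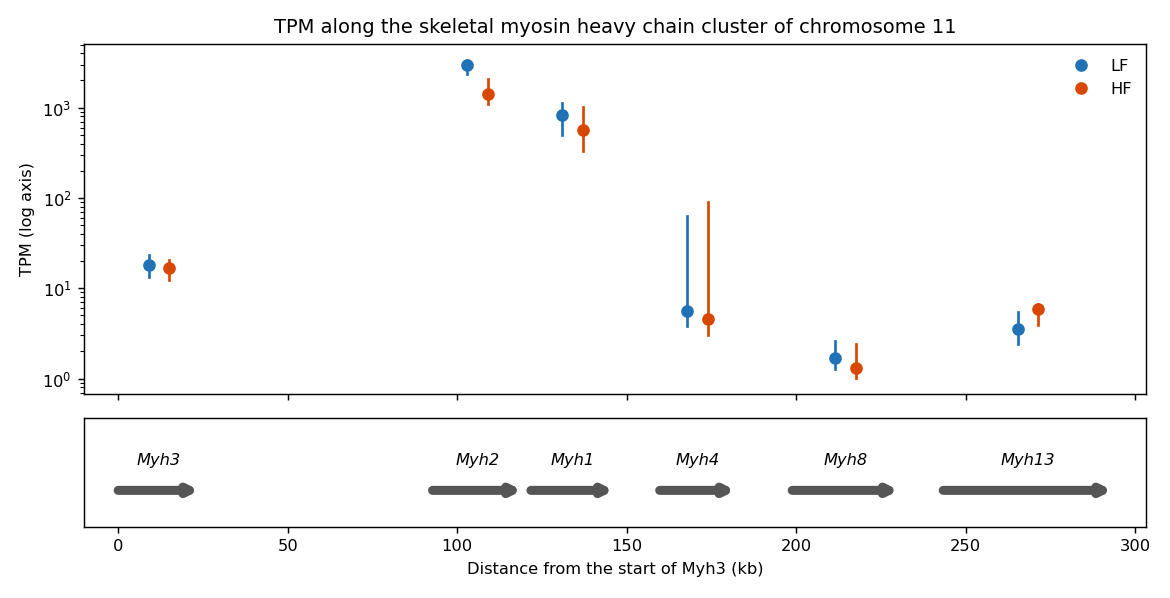
Upper panel, TPM (log axis) in LF and HF libraries (point, median; line, lowest to highest, n = 6 each) for each gene of the chromosome 11 cluster, the points set slightly apart around the gene's middle. Lower panel, the genes as arrows by distance from the start of Myh3 in kb. Only the Myh2 ranges of LF and HF do not overlap.

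The genes that work with these chains were taken as lists chosen by function. Among 7 other myosin heavy chains, 6 passed the filter on low values, and in HF Myh13 was called higher and Myh11, the smooth muscle chain, lower (-0.17 ± 0.094, limma's adjusted p = 0.016). In the main fit 1 of the 6 was thus called each way, against 6.03% of all genes higher and 35.3% lower. With size factors 3 were called higher and 0 lower, against 19.9% and 20.6% of all genes. Leaving out 1 library gave 0 to 2 higher and 1 to 2 lower, against 460 to 748 and 3059 to 4475 of all 10757 genes. The next in order of p, the nonmuscle chain Myh14, was not called (-0.39 ± 0.20, limma's adjusted p = 0.0505). Myh6, the cardiac chain that shares words with Myh7, was at 3.61 to 7.15 TPM over all 12 libraries. Of 7 cardiac markers Myl7 was at 0 in every library and only Myh6 and Tnnt2 reached 1 TPM in all.

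Of 12 partners of slow fibres, such as slow troponins and light chains, 2 were called higher and 2 lower in HF, against 6.03% and 35.3% of all genes, with a median of 0.21. Tnnc1, the slow troponin C, had 4319 ± 503 TPM in LF and 5486 ± 527 TPM in HF (SD, n = 6) and rose (0.50 ± 0.093, limma's adjusted p = 0.0103). Casq2, the slow isoform of the calcium store protein calsequestrin, had 210 ± 30.7 and 147 ± 18.8 TPM and fell (-0.36 ± 0.097, limma's adjusted p = 0.00184). Atp2a2, the slow calcium pump, also fell (-0.25 ± 0.13, limma's adjusted p = 0.0251), a call lost under 10 of 24 alternatives. The other gene called higher was Tnnt1, the slow troponin T (0.43, limma's adjusted p = 0.0252), a call lost under 9 of 24. The list did not move one way, and the counts depended on the scaling, with 6 higher and 1 lower under size factors, against 19.9% and 20.6% of all genes. With the trend on length and GC content removed, Tnnc1 and Tnnt1 were no longer called (0.28 and 0.26, limma's adjusted p = 0.311 and 0.404). In that fit 470 of 10686 genes were called higher. Over all alternatives the counts ran from 0 to 6 higher and from 1 to 4 lower. They also depended on single libraries. The count of higher genes became 4 without LF control 1 or HF control 3, and 1 without LF control 2, LF laparotomy 1, HF control 1, HF control 2 or HF laparotomy 3. Calls higher over all genes were 714 and 570, then 460, 625, 541, 601 and 536, in that order, against 649 in the main fit. The count of lower genes became 1 without LF control 3, HF control 3, number 2 or 3 of LF laparotomy, or number 1 or 2 of HF laparotomy. Calls lower over all genes fell there too, from 3798 to 3094, 3059, 3264, 3272, 3095 and 3193, in that order.

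Of 12 partners of fast fibres 0 were called higher and 3 lower, a smaller share than the 35.3% of all genes called lower, with a median of -0.09. These were Casq1, the fast calsequestrin (-0.13 ± 0.073, limma's adjusted p = 0.00975), Tpm1, a tropomyosin (-0.17 ± 0.10, limma's adjusted p = 0.0226), and Mylpf, the fast regulatory light chain (-0.22 ± 0.14, limma's adjusted p = 0.0495). The call of Mylpf was lost under 15 of 24 alternatives, that of Tpm1 under 7 and that of Casq1 under 1. Under size factors none of the 12 was called, against 19.9% of all genes called higher and 20.6% lower. The count of 3 became 1 without HF control 1, HF control 2 or HF laparotomy 3 and 5 without HF laparotomy 2. Calls lower over all 10757 genes were 3355, 4014, 3789 and 3193, in that order, against 3798 in the main fit.

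Of 12 genes for building the thick filament 0 were called higher and 6 lower, against 6.03% and 35.3% of all genes. Smyd1, a muscle methyltransferase that binds myosin, had 166 ± 24 TPM in LF and 109 ± 11.7 TPM in HF (SD, n = 6) and fell (-0.46 ± 0.097, limma's adjusted p = 0.000847). Myom2, an M-band protein that ties thick filaments together, fell (-0.48 ± 0.14, limma's adjusted p = 0.00401), and so did Hsp90aa1, a chaperone of myosin folding (-0.25 ± 0.096, limma's adjusted p = 0.00621). The median of the list was -0.08. With size factors 3 of the 12 were lower, against 20.6% of all genes.

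Of 22 regulators of fibre type 20 passed the filter, and 0 were called higher and 15 lower in HF, against 35.3% of all genes called lower, with a median of -0.34 against 0 for all genes by construction. Tead1, a factor that binds the CATTCC letters, had 57.9 ± 9.42 TPM in LF and 32.2 ± 3.92 TPM in HF (SD, n = 6) and fell (-0.67 ± 0.11, limma's adjusted p = 0.000374). Ppargc1a, a coactivator of oxidative metabolism, had 8.64 ± 1.87 and 4.08 ± 0.515 TPM and fell (-0.76 ± 0.13, limma's adjusted p = 0.000514). Mef2d, of the MEF2 family, had 80.7 ± 14 and 49.4 ± 7.17 TPM and fell (-0.54 ± 0.11, limma's adjusted p = 0.00102). The count of lower regulators was 12 with size factors, against 20.6% of all genes. Over all alternatives it was 12 to 18, with 18 to 22 regulators tested. Alternatives that tested the same 10757 genes called from 2211 (size factors) to 5369 (array weights) of them lower. After surgery none of the genes of these lists was called.

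**Figure D5:**
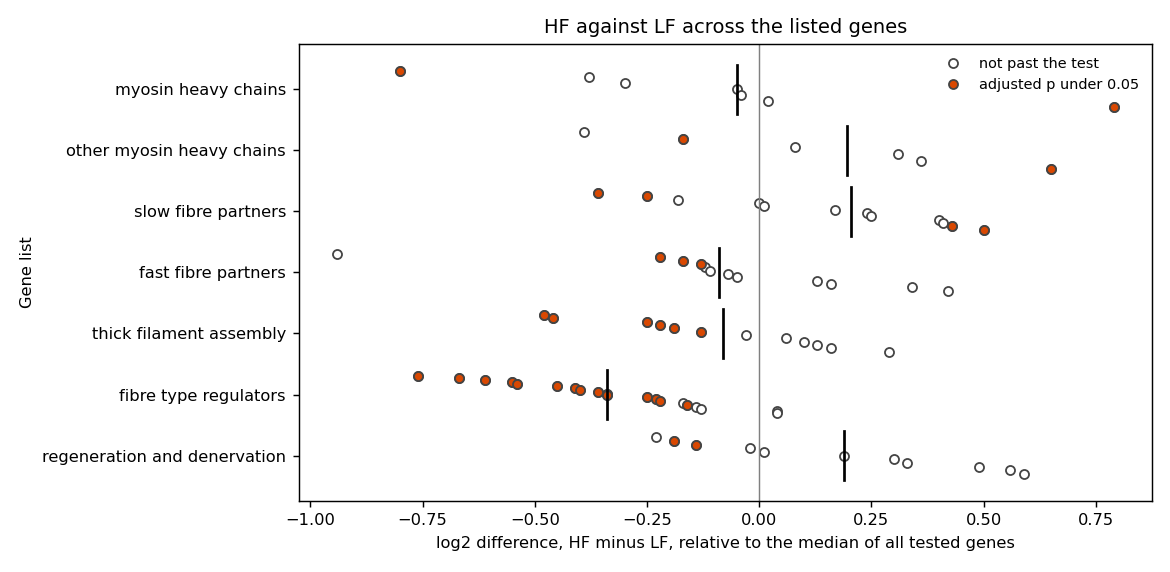
Log2 difference of HF minus LF averaged over surgery, on log2(TPM + 1) and centred on the median over all tested genes, for every tested gene of the 7 lists, with filled points for an adjusted p under 0.05 (limma) and a bar at the median of each list. Myh2 and Myh7b are the outermost points of their list at -0.80 and 0.79, and the fibre type regulators lie mostly below 0 with a median of -0.34.

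A single library stood apart in genes of regeneration and denervation. HF control 2 had Gadd45a, a stress gene raised in denervated muscle, at 108 TPM against 6.24 to 17.6 TPM in the other 11 libraries, Runx1 at 5.91 TPM against 0.303 to 1.47 TPM, and Chrng, the fetal acetylcholine receptor subunit, at 5.58 TPM against 0.0996 to 1.16 TPM. The same library was the highest in Myh7b and the lowest in Myh1, but its Myh3 (20.7 TPM) and Myh8 (1.59 TPM), the chains of regenerating fibres, lay within the range of the others. Without it Myh7b was still called in the averaged contrast (0.72, limma's adjusted p = 0.00296), and the call of Myh2 held too (-0.79, limma's adjusted p = 0.000677). Of the 16 regeneration and denervation genes 11 passed the filter, and 0 were called higher and 2 lower in HF, a smaller share than the 35.3% of all genes called lower. These were Hdac9 (-0.19 ± 0.088, limma's adjusted p = 0.00836) and Myf6 (-0.14 ± 0.10, limma's adjusted p = 0.0366). The call of Myf6 was lost under 14 of 24 alternatives, among them leaving out any library other than HF control 2, HF laparotomy 2 and LF laparotomy 1 (adjusted p from 0.0518 to 0.0879), and that of Hdac9 under 3 of 23, size factors, quantile normalization and the removed trend on length and GC content.

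A few single markers of other cell types were called between the classes. The 5 endothelial markers summed to 139 to 184 TPM in LF and 166 to 229 TPM in HF, and the 4 adipocyte markers to 291 to 383 TPM in LF and 374 to 599 TPM in HF, overlapping in both. Of 5 endothelial and 3 adipocyte markers tested, 1 each was called, against 6.03% of all genes called higher in the same fit. That share depended on the scaling and was 19.9% with size factors. These were Egfl7 (0.77 ± 0.073, limma's adjusted p = 0.00031) and Fabp4 (0.63 ± 0.11, limma's adjusted p = 0.00438), both higher in HF. Of the smooth muscle markers 2 of 4 tested, Myh11 and Smtn, were lower, against 35.3% of all genes. The smallest limma adjusted p was 0.674 for satellite cell, 0.228 for fibroblast, 0.226 for macrophage and 0.397 for erythroid markers. The summed slow fibre markers ran from 30321 to 40006 TPM in LF and from 36406 to 45208 TPM in HF, and the summed type 2B markers from 15705 to 19913 TPM and from 12711 to 18821 TPM, overlapping in each case. The part of cell composition in the differences of Myh2 and Myh7b was not tested.

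For each member the 3 genes of most similar pattern over the 12 libraries were taken, by Pearson's r of log2(TPM + 1) among 6416 named genes of at least 5 TPM on average. These r values share libraries, scaling and the split into HF and LF, and are a description. Myh2 was closest to Got1, the cytosolic aspartate aminotransferase (r = 0.953), Sema6c (0.944) and Itga7, the laminin receptor subunit of muscle (0.944). Got1 had means of 372 and 384 TPM in LF without and with surgery and 251 and 252 TPM in HF. Myh7b was closest to Sh3bgrl3 (0.908), Rpl28, a ribosomal protein (0.892), and Pfas (0.887). Myh7 was closest to Ccdc80 (0.943), Sumf1 (0.939) and Spop (0.929).

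Among the fast chains, Myh1 was closest to Aldh1a1 (r = 0.829), Pygm, the muscle glycogen phosphorylase (0.814), and Ddit4l (0.783), and Myh4 to Txnip (0.761), Mybpc2 (0.728) and Pvalb (0.712), with 3 libraries setting the pattern of Myh4. Myh8 was closest to Podxl2 (0.836), the skeletal actin Acta1 (0.752) and Nmrk2 (0.748), and Myh3 to Ccm2 (0.786), Msantd3 (0.783) and Rtca (0.779). No member was among the 3 closest genes of another member.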

How the data were processed

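The authors deposited 1 table of TPM per gene for 12 libraries. Per the submitters' processing notes, kallisto and DESeq2 were used with GRCm38; no source used here gives their settings or says whether strand was used. Per the labels' protocols the libraries were poly(A) selected with a stranded kit. TPM keeps no read depth, so no counting error could be given, and the listed genes sum to 956473 to 962830 TPM a library. Symbols were matched to 29857 of 30323 identifiers through the GENCODE annotation. The 10757 genes averaging 1 TPM or more were fitted as log2(TPM + 1) with limma 3.58.1 (R 4.3.3) over all 4 groups, with Benjamini-Hochberg adjustment at 0.05 and 7 contrasts, and differences were centred on the median of all tested genes. Both tests were tested on simulated data. Shares were compared by exact permutation (Python 3.11.15). The members and lists were chosen with earlier results of these data known, so nothing here is independent support for those. Named genes are all members, the 3 of smallest p per list and contrast, and the 3 of highest r per member. Atp2a2, Tnnt1, Tnnt2, Myl7, Egfl7, Fabp4, Gadd45a, Runx1, Chrng, Mybpc2 and Pvalb were partly chosen after their values were seen. The libraries carry no replicate pairing.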

Additional observations from a re-analysis of the deposited data

How the results depend on the processing

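The alternatives tried were a pseudocount of 0.5 or 0.1, a minimum of 5 TPM (which leaves Myh8 untested), no filter, size factors, quantile normalization, rescaled TPM, a length and GC trend removed, robust eBayes, array weights, the compared groups only, a threshold of 0.10, leaving out each library and, added after seeing the data, a fit lacking the 3 libraries whose Myh4 exceeded 30 TPM. Of 1197 member values, 125 were called both ways, 22 lost the call, 19 gained it, and none called in either changed sign; of 1031 called in neither, 69 had another sign. Array weights called 4 members for HF against LF averaged, 5 after laparotomy and 3 for laparotomy in LF, with causes not tested. Of all 10757 genes they called 6894, 7538 and 734 in the same contrasts. The estimate of these weights stopped before reaching its convergence tolerance. HF against LF in controls gave 0 called members with no filter and 1 with size factors. It gave 0 without the 3 Myh4 libraries and 0 to 2 leaving out 1 library. Over all genes the calls there were, in that order, 121 of 22738, then 1934, 163 and 2 to 2080 of 10757. HF against LF after laparotomy gave 1 with no filter, 1 without the Myh4 libraries and 1 to 3 leaving out 1 library. All genes gave 1487 of 22738, then 2651 and 1048 to 4157 of 10757. Without the Myh4 libraries the Myh7 share was 11.3 points and log2 of Myh2 over Myh7 -0.73 (exact permutation p = 0.0667 each, with fewer libraries). Leaving out 1 library, the Myh7 share ran from 8.92 to 13.8 points, the Myh2 share for laparotomy from 1.33 to 5.41 points and the log2 ratio for laparotomy from 0.0922 to 0.415, each highest, for laparotomy, without HF control 3. No paired analysis was possible because the replicate numbers are not from the labels.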

Other observations

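Between members the levels of Myh7b and Myh1 ran most strongly against each other over the 12 libraries (r = -0.802 of log2(TPM + 1)), and those of Myh7b and Myh2 gave r = -0.668, while Myh2 and Myh8 gave the highest r (0.662). Myh7 and Myh7b gave r = -0.075. These are descriptions over libraries that share the split into HF and LF, and HF control 2, with the highest Myh7b and the lowest Myh1, enters the first. The 3 HF laparotomy libraries differed in Myh2 by a coefficient of variation of 1.06%, against 31.2% in HF controls, 6.06% in LF after laparotomy and 10.4% in LF controls, while Myh1 in the same HF laparotomy libraries varied by 40.1%.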
